A study of Mus musculus with 4 samples.

Results

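The genes described here are 39 members of the unfolded protein response and of the ATF4 stress response, out of 45777 genes measured by RNA sequencing of mouse gastric organoids. They were chosen by name from knowledge of these pathways, with earlier results of these data known. All 39 were found in the files and passed the filter on low counts. A total of 18 members belong to the endoplasmic reticulum (ER) arm, as chaperones, degradation factors and stress sensors, and 21 belong to the ATF4 arm, as regulators, amino acid genes and stress effectors. Organoids are epithelial cells grown as small structures in culture. Control organoids carry knockouts of Cdh1 and Trp53, and Smad4 Knockout organoids carry knockouts of Cdh1, Trp53 and Smad4, so all libraries lack intact Cdh1 and Trp53 by label. Each genotype has 2 libraries, each from its own named organoid line (CPE and CPG for Control 1 and 2, CPS1 and CPS4 for Smad4 Knockout 1 and 2). All were grown with 5% serum and conditioned medium, and then kept for 2 days in medium with B27 and N2 but without serum or conditioned medium. How the lines were made, whether each is 1 clone and whether they come from separate animals was not given in the sources used here, so p-values measure the spread between these samples, which may be technical.

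The ER folds secreted and membrane proteins. When unfolded proteins build up there, the sensors IRE1, PERK and ATF6 raise chaperones, degradation factors and folding enzymes. PERK belongs to a group of kinases that phosphorylate the translation factor eIF2 alpha, and the others in the group respond to lack of amino acids, to viral RNA or to lack of heme. Phosphorylated eIF2 alpha slows translation in general but favours translation of ATF4, a transcription factor that raises genes for amino acid synthesis and uptake. IRE1 cuts an intron out of the Xbp1 transcript, and only the cut form gives the active factor. In the gut, mucus-making cells hold a form of IRE1 of their own, IRE1 beta, encoded by Ern2. Gene counts do not tell cut from uncut Xbp1, phosphorylated from other eIF2 alpha, or the translation of Atf4.

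The promoters show what the members share in sequence. RefSeq promoter windows, from 250 bases before to 50 bases after a gene's start in GRCm38.p6, were at hand for 32 of the 39 members. The ER stress response element, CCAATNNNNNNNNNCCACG on either strand, is the site bound by ATF6 together with the factor NF-Y. It was present in 39 of 32851 promoter windows of the genome, or 0.119%, and 6 of those 39 belonged to members. All 6 were chaperones, of 9 chaperones with a window. They are shown in the direction of the motif, with the fixed letters of the motif in capitals, because the element was shared by chaperones and found in 0 of the 18 ATF4 genes with a window.
Hspa5, chr2:34772020-34772048, plus strand: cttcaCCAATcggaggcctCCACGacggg
Calr, chr8:84847070-84847098, plus strand: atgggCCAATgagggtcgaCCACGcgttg
Canx, chr11:50325795-50325823, minus strand: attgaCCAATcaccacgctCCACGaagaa
Dnajc3, chr14:118937822-118937850, plus strand: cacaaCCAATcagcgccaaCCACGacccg
Pdia6, chr12:17266486-17266514, plus strand: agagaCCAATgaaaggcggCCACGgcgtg
Hsp90b1, near match, chr10:86705528-86705556, plus strand: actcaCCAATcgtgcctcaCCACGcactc
Hsp90b1, far match, chr10:86705633-86705661, minus strand: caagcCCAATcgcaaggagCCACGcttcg
The element ended 46 bases before the start of Hspa5 and from 79 to 193 bases before the starts of the other genes. The related element ERSE-II, the letters ATTGG and CCACG with any base between them, searched on both strands, was found in Herpud1, 1 of 12 windows in the genome with it (0.0365%), and shares the letters CCACG with the first.
Herpud1, chr8:94386372-94386392, plus strand: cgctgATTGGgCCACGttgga
The XBP1 site TGACGTGG, which overlaps in CCACG when read on the other strand, was in 222 windows (0.676%) and in 0 of the 35 member windows.

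For the ATF4 arm the motif searched was TGATGNAA on either strand, the composite site of C/EBP and ATF factors. It is shorter, and 1304 of the 32851 windows (3.97%) held it. Among the ATF4 members, 5 of 18 genes with a window did (Asns, Pycr1, Trib3, Chac1 and Vldlr), and among the ER members Herpud1 did. That is 6 of the 35 member windows. The match in Trib3 lies after the gene's start and is not shown. The other 4 ATF4 members are shown in the direction of the motif, with its fixed letters in capitals.
Asns, chr6:7693220-7693237, minus strand: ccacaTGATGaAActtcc
Chac1, chr2:119351044-119351061, minus strand: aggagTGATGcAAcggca
Pycr1, chr11:120643839-120643856, minus strand: gtgtaTGATGcAAtgcac
Vldlr, chr19:27216815-27216832, minus strand: agcgcTGATGcAActatt
For context, the 250 bases before the start of 1 gene of each arm follow, each on the strand of its gene, with the fixed letters of the 1 match in capitals.
Hspa5, chr2:34771840-34772089, plus strand: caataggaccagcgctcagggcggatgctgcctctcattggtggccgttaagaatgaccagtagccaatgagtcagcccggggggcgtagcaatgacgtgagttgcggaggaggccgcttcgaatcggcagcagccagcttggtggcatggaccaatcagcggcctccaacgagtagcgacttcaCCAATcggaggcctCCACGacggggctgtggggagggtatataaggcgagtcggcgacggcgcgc
Asns, chr6:7693210-7693459, minus strand: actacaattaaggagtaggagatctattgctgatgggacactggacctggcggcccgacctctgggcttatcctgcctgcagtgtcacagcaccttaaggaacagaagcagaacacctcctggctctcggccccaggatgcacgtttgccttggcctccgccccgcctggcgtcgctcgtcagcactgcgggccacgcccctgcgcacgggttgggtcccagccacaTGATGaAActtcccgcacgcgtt
A match is a run of letters and not evidence of binding, and a window without one says only that the letters are not in it.

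The libraries held from 85649781 to 99845702 counts. Smad4 itself was at 94.5 and 103 CPM, that is counts scaled to an equal library size, in the control lines and at 54.4 and 52.9 CPM in the knockout lines, with a log2 fold change of -0.88 (SE 0.105, edgeR adjusted p = 0.677), and passed in DESeq2, so its transcript was lower in the knockouts by that tool and still present. Cdh1, at 26.0 to 44.1 CPM, and Trp53, at 4.69 to 6.98 CPM, were also detected in every library, and gene counts do not show whether a transcript is intact. The epithelial genes Epcam, Krt8, Krt18 and Krt19 were each at 878.6 CPM or above in every library, and the gastric transcription factor Sox2 was detected in all. These 5 are among 11 gastric epithelial markers listed, of which 0 passed in edgeR and 3 in DESeq2 (0.701% of all genes). These 3 were all higher in both knockouts: Gkn1, Tff1 and Tff2. Of the chief and parietal cell markers, Pgc, Cblif and Atp4b had 0 counts throughout, and Atp4a was at 3.54 to 4.02 CPM. The 5 fibroblast markers summed to 2.65 and 3.58 CPM in the control lines and 1.82 and 1.10 CPM in the knockout lines, and Lum had 0 counts. The 5 immune and endothelial markers summed to between 4.21 and 4.85 CPM. Genes encoded in mitochondria took 0.941% and 1.18% of counts in the control lines and 0.954% and 1.48% in the knockout lines.

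Across the whole table edgeR's quasi-likelihood test called 0 of 18115 genes between the genotypes (0%), so 0 of the 39 members passed, in either direction. DESeq2 called 127 genes (0.701%), and 0 of them were members. At an unadjusted p under 0.05 edgeR gave 1153 genes (6.36%), and among the members 2: Ern2, higher in the knockouts (3.33% of all genes), and Sesn2, lower (3.04% of all genes). In 16 of 39 members the control and knockout libraries did not overlap in CPM, against 36.9% of all genes tested. The knockouts were higher in 7 of these (18.2% of all genes) and lower in 9 (18.6% of all genes). On the TPM scale the split was 10 higher (23.2% of all genes) and 6 lower (14.1% of all genes). On both scales 11 members did not overlap, 5 higher and 6 lower, and the share of all genes on both scales was not computed. The median log2 fold change was 0.028 over the 18 ER members and -0.029 over the 21 ATF4 members, against -0.003 over all genes. Taken apart, it was 0.036 over the 11 chaperones and 0.009 over the 13 ATF4 amino acid genes. Over the 4 ATF4 regulators it was -0.061, and over the 4 stress effectors -0.18. The spread of the ER median between libraries of 1 genotype was 0.054 (pooled SD) and that of the ATF4 median 0.052, so both medians were smaller than it. Unadjusted 95% intervals of the fold change lay within 2-fold in either direction for 37 of 39 members, and Ern2 and Pycr1 were the exceptions. Such an interval was found for 61.7% of all genes tested, and at a mean of at least 5 CPM for 94.5% of genes and for 35 of 36 members.

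**Figure D1:**
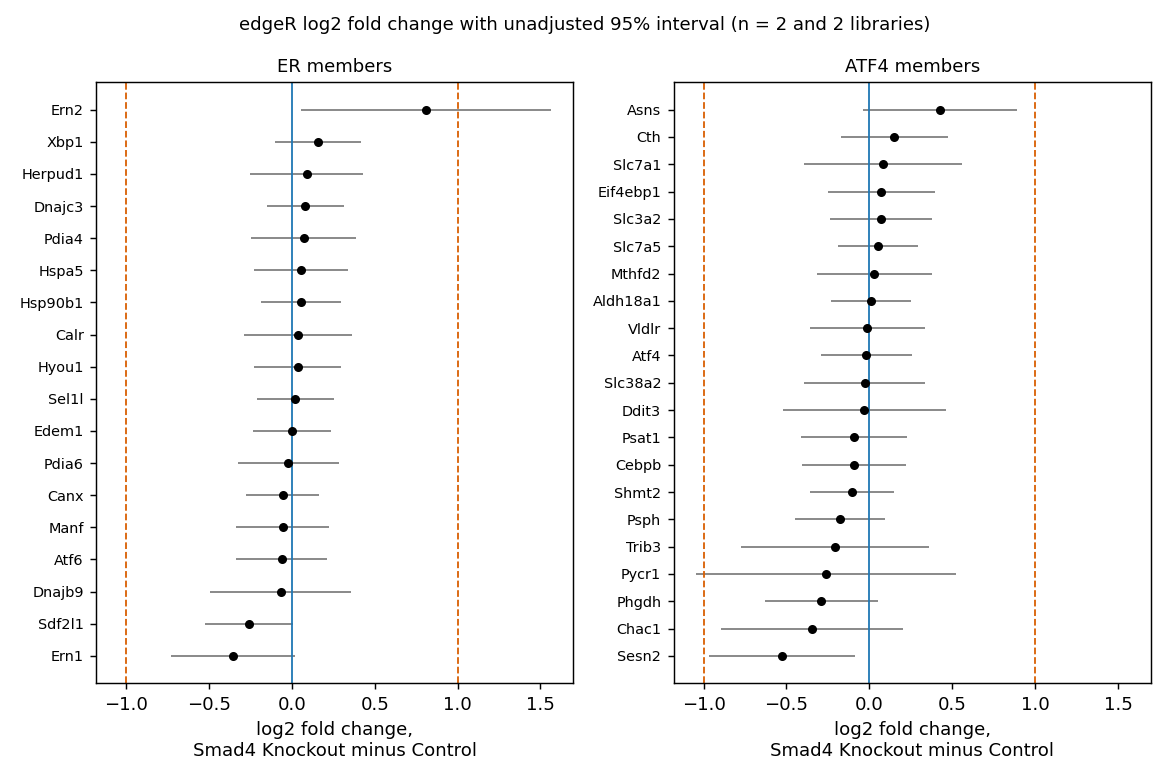
Points are edgeR log2 fold changes of the Smad4 Knockout over the Control libraries (x axis) for the 18 ER members on the left and the 21 ATF4 members on the right, with unadjusted 95% intervals. The dashed lines stand at a 2-fold difference. Ern2 at 0.81, Asns at 0.43 and Sesn2 at -0.53 are the farthest from 0, and 26 of 39 points lie within 0.1 of 0.

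Most ER chaperones were abundant in every library. None of the 11 passed the edgeR test between the genotypes, in which 0 of all 18115 genes passed. Together the 11 chaperones summed to 3519 and 3320 TPM in the control lines and to 3536 and 3559 TPM in the knockout lines. Hspa5 encodes BiP, the chief chaperone of the ER (chromosome 2, 34772090 to 34776529, gene ID 14828). It was at 860.4 and 778 TPM in the control lines and 874 and 873 TPM in the knockout lines, which makes it the member with the highest mean TPM. In CPM it was at 1411 and 1195 against 1306 and 1403, so the groups overlapped, with a log2 fold change of 0.056 (95% interval -0.23 to 0.34). Calr, the calcium-binding lectin calreticulin, had a mean of 795 TPM, and Hsp90b1, the ER form of HSP90, had 459.5. Canx, the membrane lectin calnexin, had 409.6 TPM, while Dnajb9, a co-chaperone of BiP, had the lowest mean of the chaperones at 7.89 TPM. The log2 fold changes of these 11 genes ran from -0.26 to 0.081. In CPM 8 of the 11 overlapped between the genotypes and 3 did not, where 36.9% of all genes tested did not overlap.

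Of the 3 chaperones that did not overlap in CPM, Sdf2l1 differed the most. It encodes a partner of ER DnaJ co-chaperones, and was at 51.6 and 49.6 CPM in the control lines and 40.7 and 43.9 CPM in the knockout lines. Both knockout libraries were below both controls, at 83.7% of the control mean, with a log2 fold change of -0.26 (SE 0.11, edgeR adjusted p = 0.799), and the value stayed between -0.30 and -0.20 when any library was left out. Dnajc3, which encodes the co-chaperone p58IPK, was at 157 and 153 CPM versus 163 and 165 CPM. Canx was at 1119 and 1078 CPM versus 1052 and 1065 CPM. These 2 genes differed by 0.081 and -0.054 on the log2 scale, less than the SE of 0.094 and 0.090. On the TPM scale Canx overlapped, while Hspa5, Hsp90b1 and Pdia4, which overlapped in CPM, were higher in both knockouts. On that scale 23.2% of all genes tested were higher in both knockouts.

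**Figure D2:**
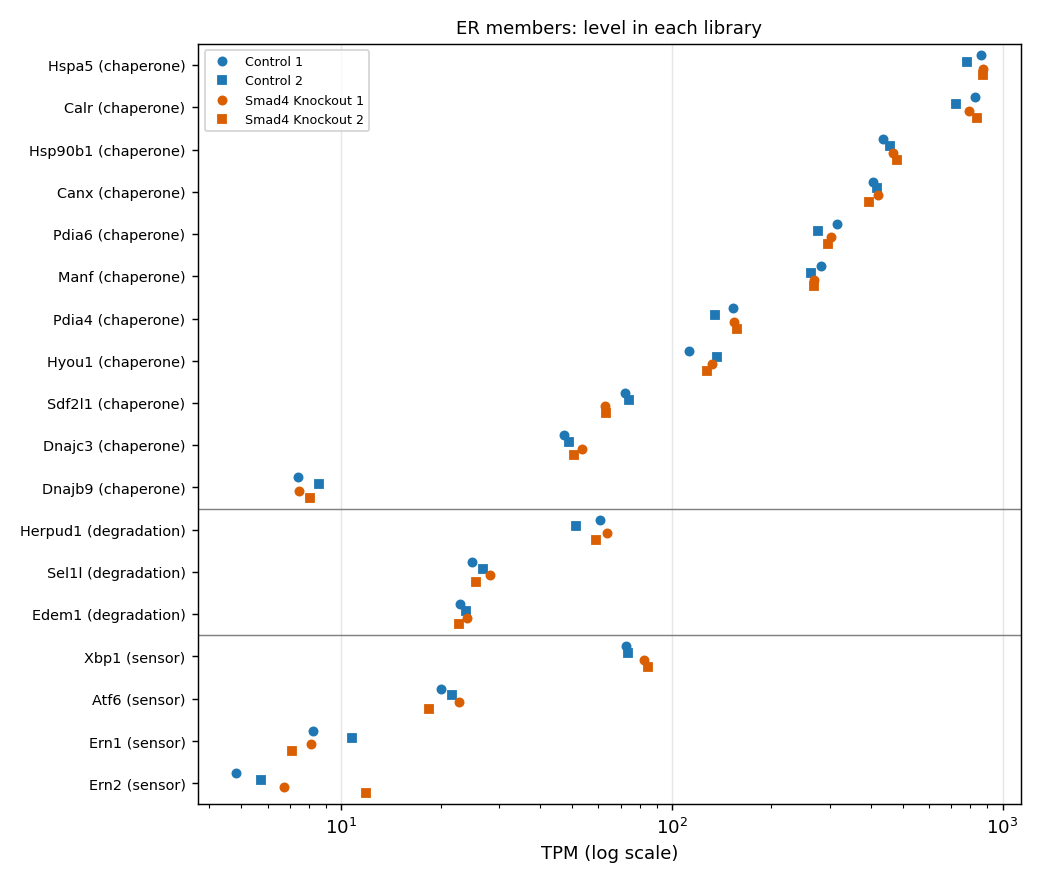
TPM in each library (log scale) for the 18 ER members, grouped as chaperones, degradation factors and sensors, with circles for the first and squares for the second library of each genotype. Levels span from 778 TPM and above for Hspa5 to under 12 TPM for Ern2, and the 4 libraries lie close together for most genes.

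The 3 degradation factors had log2 fold changes within 0.1 of 0. Sel1l encodes the scaffold of the ubiquitin ligase that draws misfolded proteins out of the ER. It was at 100.3 and 100.8 CPM in the control lines and at 103.2 and 100.9 CPM in the knockout lines, with a log2 fold change of 0.021 (95% interval -0.21 to 0.25). Its groups did not overlap, by a margin far below the SE of 0.095. Edem1, which marks misfolded glycoproteins for disposal, had a log2 fold change of 0.001. Herpud1, a membrane component of the same ligase complex, was at 0.089 with an SE of 0.139, and the controls differed more from each other (0.34) than the genotypes did.

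The sensor genes held the largest difference among the ER members. Ern2, which encodes IRE1 beta (chromosome 7, 122169893 to 122186239, gene ID 26918), was at 9.22 and 10.2 CPM in the control lines and at 11.7 and 22.4 CPM in the knockout lines. Both knockout libraries were above both controls, but Smad4 Knockout 2 alone was far above the rest. The log2 fold change was 0.81 (SE 0.31, unadjusted 95% interval 0.054 to 1.57, edgeR adjusted p = 0.754). Leaving out Smad4 Knockout 2 gave 0.28, and leaving out Smad4 Knockout 1 gave 1.20. Ern1, which encodes the widely expressed IRE1 alpha (chromosome 11, 106397620 to 106487796), lay the other way, at 21.0 and 25.8 CPM versus 18.8 and 17.8 CPM. Both knockouts were below both controls, with a log2 fold change of -0.35 (SE 0.15, edgeR adjusted p = 0.802), and without Control 2 the value was -0.20. Their mean levels per length were similar, 8.55 TPM for Ern1 and 7.29 TPM for Ern2.

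Xbp1, whose transcript IRE1 cuts, was at 104 and 99.2 CPM in the control lines and at 108 and 119 CPM in the knockout lines. The knockouts were higher in both libraries, with a log2 fold change of 0.16 (SE 0.10, edgeR adjusted p = 0.880). Atf6, which encodes the sensor that itself becomes a transcription factor, was at 96.8 and 97.4 CPM versus 99.5 and 86.6 CPM. Its groups overlapped, with a log2 fold change of -0.061 (SE 0.11).

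Because Ern2 marks mucus-making cells, genes of secretory cells are given beside it. Agr2, an ER protein disulfide isomerase needed for mucin production, was at 9.11 and 6.43 CPM in the control lines and 11.4 and 29.1 CPM in the knockout lines. Like Ern2 it was highest in Smad4 Knockout 2, with a log2 fold change of 1.38 (SE 0.44, edgeR adjusted p = 0.691). Leaving out Smad4 Knockout 2 lowered it to 0.57, and with Smad4 Knockout 1 left out it was 1.91. Spdef, a transcription factor of goblet cells, was at 8.04 and 6.40 CPM versus 7.69 and 14.4 CPM, and Creb3l4, a relative of ATF6, was at 8.88 and 7.20 CPM versus 7.38 and 11.6 CPM. In both of these the groups overlapped, and Smad4 Knockout 2 was again the highest library. Creb3l4 is from the list of further sensors and ER-bound factors given below, and was picked with its values in view. From that list, Creb3l2 had its lowest value in Smad4 Knockout 2, at 11.45 and 16.37 CPM versus 17.17 and 11.22 CPM. Bhlha15 of the secretory list was highest in Control 2, at 0.54 CPM. Tff3, which encodes a trefoil peptide of goblet cells, was at 0.949 and 0.259 CPM versus 3.05 and 8.95 CPM, and Clca1, a secreted goblet cell protein, was at 184 and 63.0 CPM versus 291 and 345 CPM. Of the 10 secretory genes listed 9 were tested, of which 0 passed in edgeR. At an unadjusted p under 0.05 in edgeR, 4 were higher (3.33% of all genes) and 1, Muc6, was lower (3.04% of all genes). In DESeq2 1, Tff3, passed (0.701% of all genes). The log2 fold change of Tff3 was 3.31 (from 2.35 to 4.53 over the libraries left out). Of the 11 gastric epithelial markers, 3 were higher in both knockouts (18.2% of all genes) and 2 lower (18.6% of all genes), Sox2 and Muc6. Muc6 had 16 and 12 counts in the control lines and 0 in both knockout lines, while Gkn2 and Muc5ac overlapped. The 3 higher ones belong to gastric surface and neck mucous cells. Gkn1, a secreted gastrokine, was at 2.95 and 2.54 CPM versus 5.87 and 19.97 CPM, and the trefoil peptide gene Tff1 was at 24.7 and 16.0 CPM versus 31.6 and 61.4 CPM. In both of these Smad4 Knockout 2 was the highest library, while Tff2, at 17.9 and 12.9 CPM versus 37.6 and 23.4 CPM, was highest in Smad4 Knockout 1. Their log2 fold changes were 2.24, 1.19 and 0.99, with an adjusted p in DESeq2 of 0.00352, 0.0350 and 0.0485 and in edgeR of 0.677 for each. Without Smad4 Knockout 2 the log2 fold change of Gkn1 was 1.11 and that of Tff1 0.65. The 10 secretory genes, without Gkn1, Tff1 and Tff2, summed to 277 and 92.0 CPM in the control lines and 459 and 548 CPM in the knockout lines. Most of each sum came from Clca1 and Fcgbp, and both differed widely between the controls. Fcgbp was at 71.7 and 14.4 CPM versus 144.5 and 144.7 CPM. The mucin genes Muc2, Muc5ac and Muc6 were each at or below 2.53 CPM in every library. The part of all these genes in the Ern2 value was not tested, and in such bulk samples more cells of a type and more RNA per cell cannot be told apart.

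**Figure D3:**
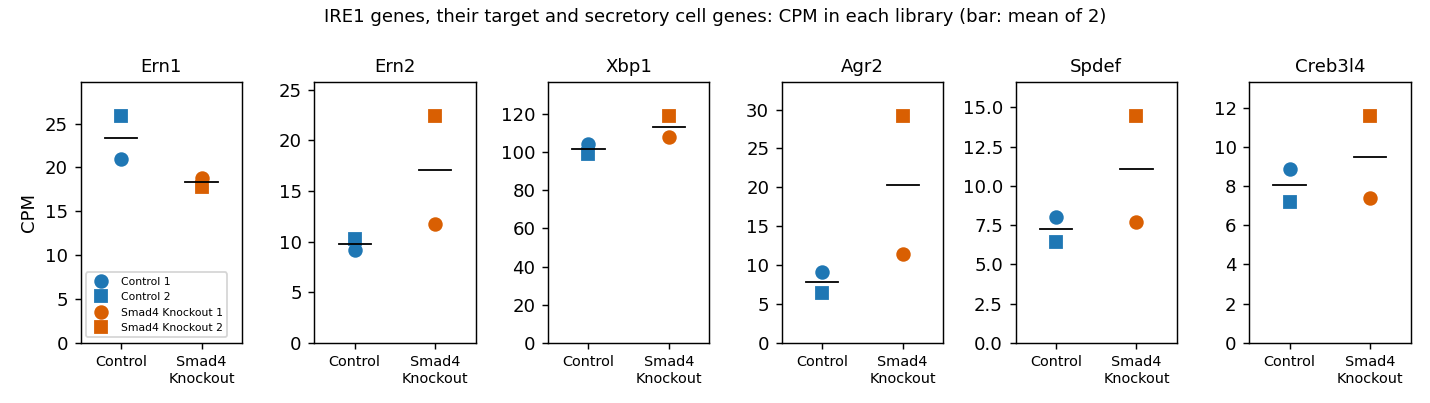
CPM in each library for Ern1, Ern2, Xbp1, Agr2, Spdef and Creb3l4 by genotype, with a bar at the mean of 2 libraries and a separate axis from 0 for each gene. Smad4 Knockout 2 (orange square) is the highest library in each gene but Ern1, where it is the lowest. Creb3l4 is not from the secretory list and was picked with its values in view.

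Other genes of the ER arm, from a list that holds no member, were split about evenly in direction. Of 41 such genes 21 were above 0 and 20 below, with a median log2 fold change of 0.008. A total of 0 passed in edgeR or DESeq2, and 3 were at an unadjusted edgeR p under 0.05, against 6.36% of all genes. Of these 3, 1 was higher (3.33% of all genes) and 2 lower (3.04% of all genes). Among the 18 folding genes the smallest p belonged to Txndc11, a thioredoxin domain protein, at 35.8 and 36.0 CPM versus 29.8 and 29.6 CPM, with a log2 fold change of -0.27 (SE 0.11, edgeR adjusted p = 0.785). It was followed by Fkbp2 at -0.30 and Dnajc10, a disulfide reductase, at 0.35, or 0.10 without Smad4 Knockout 2. Of the 14 degradation and translocation genes, Edem3 (0.23), Sec61a1 (0.14) and Os9 (-0.14) had the smallest p. Among the 9 further sensors and ER-bound factors, Wfs1, an ER membrane protein, was at 40.1 and 37.0 CPM versus 30.8 and 31.4 CPM, with a log2 fold change of -0.31 (SE 0.11, edgeR adjusted p = 0.741). Mbtps2, the protease that frees ATF6 from the membrane, was at 19.6 and 22.3 CPM versus 28.2 and 25.0 CPM, with a log2 fold change of 0.34 (edgeR adjusted p = 0.785), and Eif2ak3, which encodes PERK, had a value of -0.17.

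Of the 4 regulators of the ATF4 arm none passed in edgeR, where no gene did, and all 4 log2 fold changes were below 0. Atf4 was at 260.2 and 225 CPM in the control lines and 235 and 245 CPM in the knockout lines, and its groups overlapped, with a log2 fold change of -0.018 (95% interval -0.29 to 0.26). Ddit3, which encodes the stress factor CHOP, was at 4.81 and 4.61 CPM versus 4.49 and 4.72 CPM, with a log2 fold change of -0.031 (95% interval -0.52 to 0.46). Per length, Atf4 had a mean of 227 TPM and Ddit3 of 7.58 TPM. Cebpb, a bZIP partner of ATF4, was at 20.2 and 20.8 CPM versus 18.5 and 20.03 CPM, with both knockouts lower by less than the SE (-0.092, SE 0.129). Trib3, a pseudokinase that ATF4 and CHOP induce, overlapped, with Control 1 the highest library at 9.84 CPM and the other 3 between 6.62 and 7.94 CPM.

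None of the 9 amino acid synthesis genes passed in edgeR, where no gene did, and the 2 largest differences lay in opposite directions. Asns, asparagine synthetase (chromosome 6, 7675165 to 7693209, gene ID 27053), was at 136 and 99.4 CPM in the control lines and 139 and 177 CPM in the knockout lines. Both knockouts were higher, but Smad4 Knockout 1 was above Control 1 by a small margin, with a log2 fold change of 0.43 (SE 0.19, edgeR adjusted p = 0.813). The value was 0.67 without Control 1, 0.22 without Control 2 and 0.26 without Smad4 Knockout 2. Phgdh, the first enzyme of serine synthesis (chromosome 3, 98313171 to 98339969, gene ID 236539), was at 838 and 669.8 CPM versus 653 and 581 CPM. Both knockouts were lower in CPM, and Smad4 Knockout 1 was just below Control 2, at a log2 fold change of -0.29 (SE 0.14, edgeR adjusted p = 0.825), and on the TPM scale those 2 libraries, at 596 and 595 TPM, were level and the groups overlapped. Without Control 1 the value was -0.12.

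Of the other enzymes on the path from serine to one-carbon units, Psph and Shmt2 also lay lower in both knockouts. Psph, the last enzyme of serine synthesis, was at 55.7 and 50.3 CPM versus 48.0 and 45.8 CPM, with a log2 fold change of -0.18 (SE 0.11, edgeR adjusted p = 0.873). Shmt2, which turns serine to glycine in mitochondria, was at 116.2 and 106.1 CPM versus 101.8 and 105.0 CPM (-0.10, SE 0.10, edgeR adjusted p = 0.952). Psat1, the middle enzyme of serine synthesis, was at -0.092 and Mthfd2, a mitochondrial folate enzyme, at 0.031, and both overlapped. The 5 genes of this path had a median log2 fold change of -0.10, and all 5 were higher in Control 1 than in Control 2, by a median of 0.27. Control 1 was also the higher control in TPM for all 5. For 4 of the 5 the gap between the controls was larger than that between the genotype means, as it was for 59.6% of all genes.

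The remaining synthesis genes were those for proline and cysteine. Cth, which makes cysteine from cystathionine, was at 23.2 and 22.0 CPM versus 26.6 and 23.5 CPM, higher in both knockouts by about its SE, with a log2 fold change of 0.15 (SE 0.13, edgeR adjusted p = 0.935). Aldh18a1, the first enzyme of proline synthesis, was at 0.009 with an SE of 0.099. Pycr1, the last enzyme of that path, was the member with the lowest level, at 1.61 TPM on average and at 1.57 to 2.57 CPM, and its interval of -1.05 to 0.52 was among the 2 widest.

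The 4 amino acid transport genes had log2 fold changes from -0.029 to 0.080. Slc7a5, the light chain of the large neutral amino acid carrier, was at 66.5 and 68.7 CPM versus 69.9 and 70.4 CPM, with a log2 fold change of 0.054 (SE 0.098). Both knockouts were higher, by less than the SE. Its heavy chain Slc3a2 (0.070) overlapped. Slc7a1, the arginine and lysine carrier, and Slc38a2, the carrier for small neutral amino acids, differed mainly between libraries of 1 genotype. Slc7a1 was at 113 and 168 CPM in the control lines and 157 and 141 CPM in the knockout lines, and Slc38a2 was at 299.8 and 366 CPM versus 359 and 294 CPM. In both genes the groups overlapped.

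**Figure D4:**
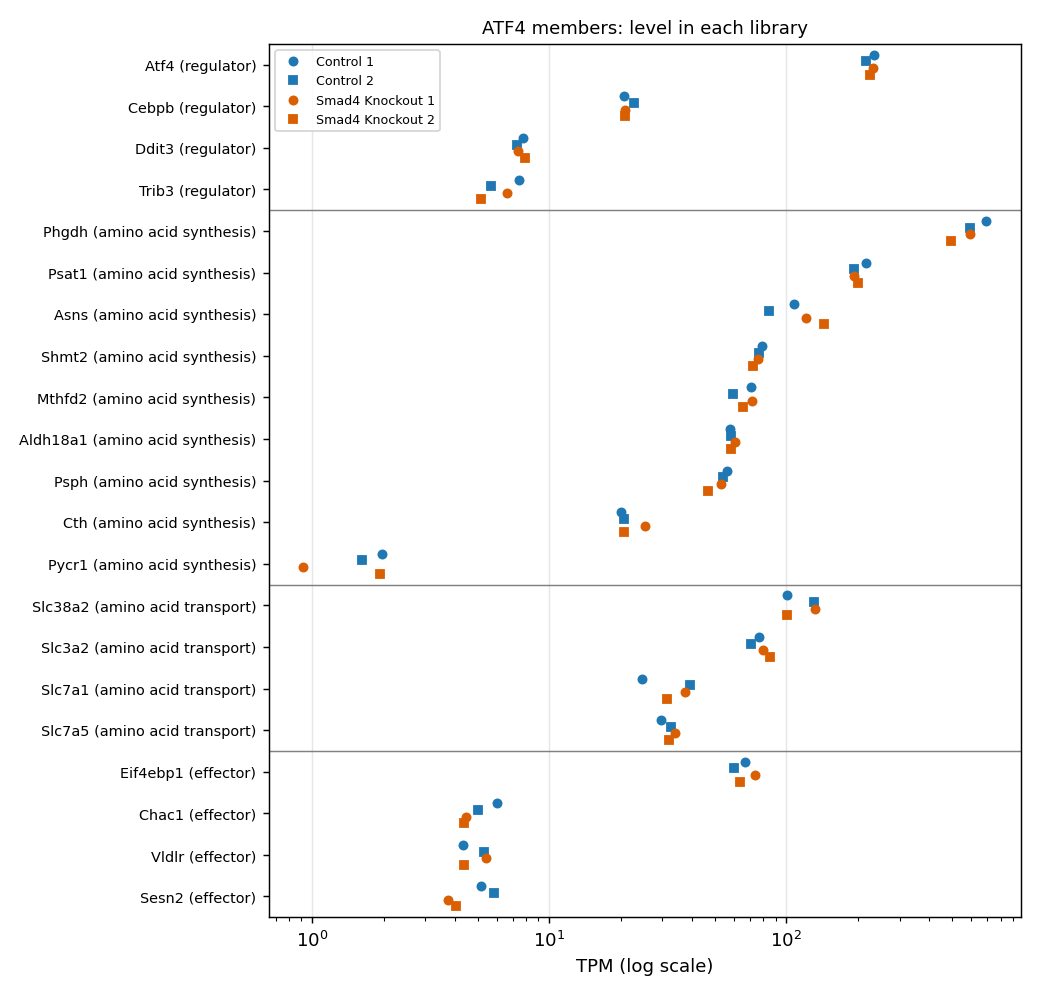
TPM in each library (log scale) for the 21 ATF4 members, grouped as regulators, synthesis genes, transport genes and effectors, with circles for the first and squares for the second library of each genotype. Phgdh is the highest, at 494 to 697 TPM, and Pycr1 the lowest, and the effectors Chac1, Vldlr and Sesn2 all lie at or below 6 TPM.

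Among the stress effectors Sesn2 was the ATF4 member with the smallest p. It encodes sestrin 2, a leucine sensor that restrains mTORC1 and is induced by p53 as well as by ATF4 (chromosome 4, 132492804 to 132510456, gene ID 230784). It was at 8.80 and 9.38 CPM in the control lines and at 5.83 and 6.77 CPM in the knockout lines. The 2 knockout libraries lay below both controls, at 69.3% of the control mean, with a log2 fold change of -0.53 (SE 0.18, unadjusted 95% interval -0.97 to -0.088, edgeR adjusted p = 0.703). The value ran from -0.63 to -0.43 over the libraries left out. Chac1, which breaks down glutathione and is a target of ATF4 and CHOP, was at 6.04 and 4.70 CPM versus 4.11 and 4.33 CPM, lower in both knockouts (-0.35, SE 0.22, edgeR adjusted p = 0.876). Eif4ebp1, the translation repressor 4E-BP1, overlapped at 0.073, and Vldlr, a lipoprotein receptor induced through ATF4, overlapped at -0.012.

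Other genes of the ATF4 arm showed no common direction. Among 42 such genes 41 were tested, with 21 above 0 and 20 below, a median of 0.002, and 0 passing in edgeR or DESeq2. In edgeR 3 were at an unadjusted p under 0.05, all lower (3.04% of all genes): Ddit4, Vegfa and Cbs. Ddit4, another brake on mTORC1, was at 64.7 and 53.1 CPM versus 45.2 and 35.3 CPM, with a log2 fold change of -0.55 (SE 0.17, edgeR adjusted p = 0.677). Vegfa, a vessel growth factor also raised by low oxygen, was at 109.8 and 86.0 CPM versus 73.6 and 53.0 CPM (-0.63, SE 0.20, edgeR adjusted p = 0.677), and Stc2, the next by p, was at 0.047 (from -0.15 to 0.23 over the libraries left out). Of 12 further amino acid genes, Cbs, which makes cystathionine, was at 32.8 and 36.2 CPM versus 26.0 and 14.1 CPM (-0.79, SE 0.28, edgeR adjusted p = 0.735). Without Smad4 Knockout 2 that value was -0.40, and without Smad4 Knockout 1 it was -1.30. Gpt2 (-0.27) and Slc6a9 (-0.21) were the next. Of 12 further regulators, Eif2ak2, the kinase that senses viral RNA (0.21), Nupr1 (0.30, but -0.016 without Smad4 Knockout 2) and Ppp1r15b, a subunit of the eIF2 alpha phosphatase (0.13), had the smallest p. Fgf21 had 0 counts in all libraries, which allows up to 3 counts in each.

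By median size, libraries of 1 genotype differed more than the genotype means. Single libraries vary more than means of 2, so a larger gap between them is likely even without any effect of genotype. The median size of the difference between the 2 controls was 0.198 over the members and 0.227 over all genes, and between the 2 knockouts 0.116 and 0.207, while the median size of the fold change between genotypes was 0.072 and 0.174. In 25 of 39 members the controls differed more from each other than the genotype means did, against 59.6% of all genes. Chaperones were higher in Smad4 Knockout 2 than in Smad4 Knockout 1 in 11 of 11 cases by CPM, where 50.3% of all genes were, but in 6 of 11 by TPM, where 36.6% were. They were higher in Control 1 than in Control 2 in 9 of 11 cases by CPM (52.1% of all genes) and in 5 of 11 by TPM (40.1%). Amino acid synthesis genes were higher in Control 1 in 9 of 9 cases by CPM and in 7 of 9 by TPM. These counts changed with the scale: the median of all genes differed by -0.068 between Control 1 and Control 2 and by -0.089 between Smad4 Knockout 2 and Smad4 Knockout 1 in log2 TPM.

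**Figure D5:**
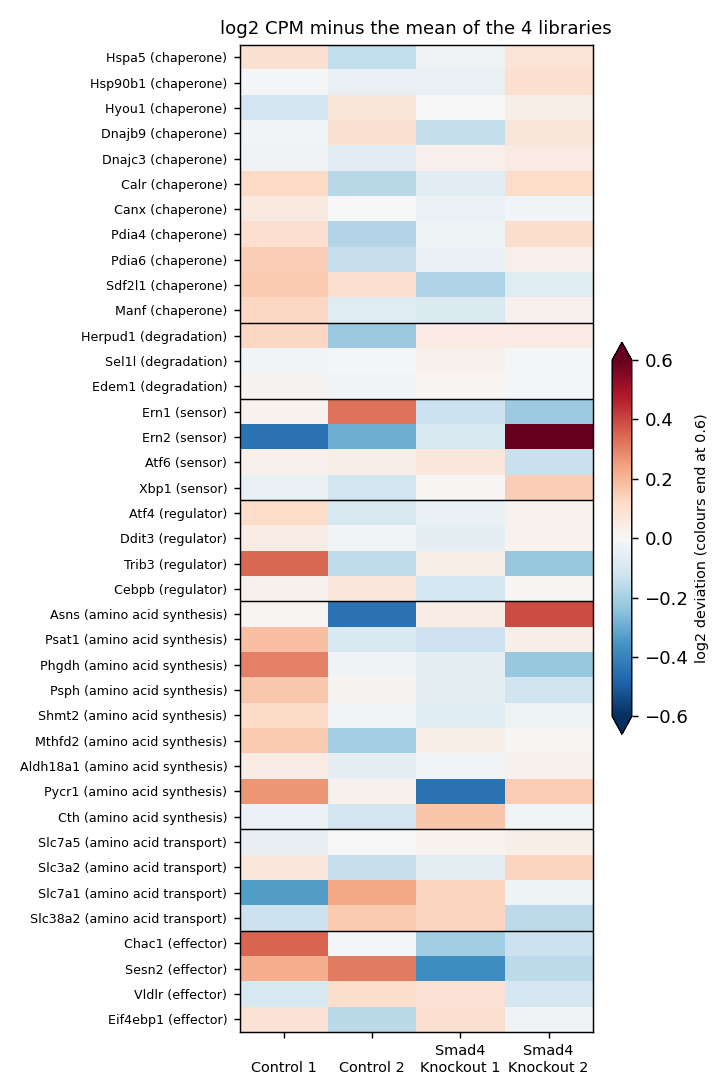
Colour shows log2 CPM minus the mean of the 4 libraries for each of the 39 members (rows, by role) in each library (columns), red for above and blue for below. The strongest colour is in Ern2 in Smad4 Knockout 2, followed by Asns and Pycr1, and most chaperone rows are pale, with Control 2 and Smad4 Knockout 1 the bluer columns.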

How the data were processed

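Total RNA of the organoids was sequenced after library construction with the TruSeq Stranded Total RNA Gold kit of Illumina, as the labels' protocols state. HISAT2 2.1.0, StringTie 2.1.3b, Trimmomatic and mm10 appear in the submitters' processing notes; how reads were assigned to genes, and on which strand, was not given in the sources used here. For each of 45777 genes the files hold 2 values used here. The first is the read count column deposited by the authors, per the file headers, taken as an estimated count although all its values are whole. The second is TPM as deposited by the authors, which corrects for gene length and served to set levels of different genes side by side. For Control 2, column names add a 2 to the title of that sample. A total of 1 column named for another sample was not used.

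Genotypes were compared in edgeR 4.0.16 (R 4.3.3) by the quasi-likelihood F-test with TMM scaling, after filterByExpr (minimum count 10), with Benjamini-Hochberg adjustment over 18115 genes at 0.05. CPM uses TMM-scaled library sizes, and differences within a genotype are of log2(CPM + 0.1). The 95% intervals come from that model, unadjusted. Alternatives were RLE size factors, no filter, DESeq2 1.42.0, limma 3.58.1 on log2(TPM + 1) and log2(TPM + 0.1), a fit without 3 gene classes (mitochondrial, histone, ribosomal protein), and each library left out. The scripts were tried on simulated data first. The members and lists were chosen with earlier results of these data known. Values in every library are given for members whose groups do not overlap, for those with an unadjusted p under 0.05 and for Atf4, Ddit3, Xbp1, Ern1, Ern2, Atf6 and Hspa5; of other lists, for up to 3 genes with the smallest p and 5 CPM or more in the higher group. Any gene named beyond this was picked with its values in view. Promoter windows are from RefSeq (GRCm38.p6).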

Additional observations from a re-analysis of the deposited data

How the results depend on the processing

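No member passed an adjusted p of 0.05 under any of the 10 alternatives; the lowest was 0.067, for Ern2 without Smad4 Knockout 1, and over its alternatives it reached 0.9998. The count of genes called, 0 in edgeR, was 127 with DESeq2 (96 higher and 31 lower) and ranged from 0 to 92 over the libraries left out, with 92 without Smad4 Knockout 1 and 1 without Control 1; the cause was not tested. RLE, no filter, limma on TPM and the fit without mitochondrial, ribosomal protein and histone genes also gave 0, with 941 genes at an unadjusted p under 0.05 in limma on log2(TPM + 1). The median of the ER members ranged from -0.059 (without Control 2) to 0.061 over the libraries left out, and that of the ATF4 members from -0.070 to 0.002. On log2(TPM + 1) and log2(TPM + 0.1) the ATF4 median was 0.019 and 0.020, of the opposite sign to the -0.029 on counts, a shift smaller than its spread between libraries. The log2 fold change of 36 of 39 members moved over 1.5 times when some library was left out, all but Dnajc3, Sdf2l1 and Sesn2. In 23 members it changed sign: Hspa5 from -0.061 to 0.18, Hsp90b1 from -0.005 to 0.12, Hyou1 from -0.053 to 0.13, Dnajb9 from -0.17 to 0.034, Calr from -0.10 to 0.19, Pdia4 from -0.063 to 0.22, Pdia6 from -0.16 to 0.13, Manf from -0.15 to 0.049, Herpud1 from -0.075 to 0.27, Edem1 from -0.018 to 0.025, Atf6 from -0.17 to 0.049, Atf4 from -0.12 to 0.091, Ddit3 from -0.063 to 0.005, Trib3 from -0.44 to 0.063, Psat1 from -0.22 to 0.051, Mthfd2 from -0.14 to 0.22, Aldh18a1 from -0.039 to 0.059, Pycr1 from -0.58 to 0.004, Slc3a2 from -0.032 to 0.18, Slc7a1 from -0.17 to 0.39, Slc38a2 from -0.18 to 0.12, Vldlr from -0.11 to 0.092, Eif4ebp1 from -0.048 to 0.21. On log2(TPM + 1) and log2(TPM + 0.1) 5 of these changed sign too, Pdia6 at 0.021 and 0.022, Atf4 at 0.020 and 0.020, Ddit3 at 0.021 and 0.023, Slc38a2 at 0.004 and 0.005, and Vldlr at 0.019 and 0.023. The other 16 members kept their sign in all 10. No paired analysis was possible because the labels give no replicate numbers shared by the genotypes. With a library left out, the lone one of its genotype is assumed to vary like the others. With 2 libraries per genotype an exact permutation test cannot give a two-sided p below 0.333.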

Other observations

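The cytosolic aminoacyl-tRNA synthetases, which load amino acids onto tRNA and include several targets of ATF4, were abundant. The 13 listed are part of the 42 other genes of the ATF4 arm given above. All 13 listed genes were tested, 9 were above 0 and 4 below, with a median log2 fold change of 0.009. In edgeR and DESeq2 0 passed, and in edgeR 0 were at an unadjusted p under 0.05 (6.36% of all genes). Cars, for cysteine, had the smallest p, at 124 and 113 CPM in the control lines and 106 and 93.5 CPM in the knockout lines, with a log2 fold change of -0.25 (SE 0.11, edgeR adjusted p = 0.819). It was followed by Vars, for valine, at -0.16 and Eprs, for glutamate and proline, at 0.14. In 11 of 13 the level was higher in Control 1 than in Control 2 by CPM, and in 7 of 13 by TPM.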
